A study of Mus musculus with 8 samples.

Results

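The ubiquitin-specific proteases (USPs) and the ovarian tumour (OTU) proteases are the enzyme families that make up most of the deubiquitinases of a mouse cell, and their transcripts were examined for N6-methyladenosine (m6A) in mouse embryonic fibroblasts (MEFs). Members were all m6A peaks whose gene name began with Usp and a digit, with Otud or with Otub. This rule took 241 of 38705 peaks, which fell into 133 of 21168 merged regions and belonged to 49 genes, 41 named Usp and 8 named Otud or Otub. It also took Usp6nl, a Rab GTPase-activating protein that shares only its name with the USPs and held 3 peaks. Leaving it out changed none of the counts of regions compared between the groups.

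MEFs were isolated from wild-type C57BL/6 embryos at day 13.5 and used at passage 5 to 6. Control cells stayed in full medium, whereas starved cells spent 2 h in nutrient-deprived medium. Each group had 2 replicates, each with a library immunoprecipitated with an m6A antibody (IP) and an input library without antibody, so that the 8 samples formed 4 groups of 2. The study asked which mRNAs change in m6A when nutrients are withdrawn, and each IP library came with its own list of peaks called over its input. The study calls the replicates biological, but the labels do not say whether they came from separate embryos or cultures, so what their spread includes is not known. Fold enrichment is the ratio of IP to local input background at a peak, a measure of pull-down and not of transcript level. The lists held 8974 to 10103 peaks and no read counts, so depth is unknown and a gene without a peak may be unmethylated, weakly expressed or missed. Of 12 fibroblast markers, 7 carried a peak, and Pdgfra and Pdgfrb did so in all 4 lists, while Col1a1, Vim, S100a4, Dcn and Lum had none. Among markers of other cell types, 2 of 4 epithelial, 1 of 3 immune and 1 of 3 endothelial genes carried a peak, none of them in all 4 lists, and their part in the results below was not tested.

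Ubiquitin is a small protein that is attached to other proteins to mark them for the proteasome, for lysosomal sorting or for assembly of signalling complexes. Deubiquitinases cut it off again. USPs and OTUs are cysteine proteases: USPs tend to cut many kinds of ubiquitin chain and recognise their substrates through extra domains, while several OTUs prefer chains of a given linkage. m6A is placed by the METTL3 complex mainly at GGAC and related motifs, most often in long internal exons and around stop codons, and is read by YTH proteins that act on translation and decay of the mRNA.

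The sequences below are stretches of spliced transcript (mm10, 5′ to 3′ on the transcribed strand) around the GGAC nearest to the middle of a region, with GGAC in capitals. The first set is from the regions of highest mean fold enrichment that all 4 IP libraries called:
Usp45, exon 14, chr4:21825015-21825044, plus strand: agctgctctgtgaGGACtgtactgaaaaga
Usp47, exon 20, chr7:112093154-112093183, plus strand: ctgaggaacgctcGGACtcagatgtgaata
Usp8, exon 11, chr2:126742323-126742352, plus strand: agaaggaactttgGGACaagcagcagaagg
Usp36, exon 16, chr11:118264780-118264809, minus strand: tgagtcacattctGGACagttaccatgtga
The next set is from the coding regions where both starved libraries were furthest above both control libraries:
Usp34, exon 15, chr11:23364200-23364229, plus strand: gtggaactggaaaGGACctggtttttaata
Usp10, exon 4, chr8:119941736-119941765, plus strand: ctaaggacagctgGGACgcagccctacgtt
Usp1, exon 9, chr4:98934506-98934535, plus strand: gataaggtggttgGGACaccattcaccgac
The last set is from regions called in both lists of 1 group and in no list of the other, control cells for Usp49 and Usp2 and starved cells for Usp54:
Usp49, exon 3, chr17:47672298-47672327, plus strand: gctacctgtgcaaGGACtacgtgctcaatg
Usp2, exon 2, chr9:44075857-44075886, plus strand: ttctccagcctccGGACttcagatggctac
Usp54, exon 21, chr14:20549362-20549391, minus strand: tctagactagtctGGACtactttagttctg

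The first question was how many of these genes carried m6A at all. The reference annotation lists 66 protein-coding genes with such names (56 USP and 10 OTU), and 49 of them (74.2%) had a peak in 1 or more libraries, against 41.1% of 21900 protein-coding genes. A peak in all 4 libraries was found in 20 of the 66 genes (30.3%), against 12.2% of all protein-coding genes. Of the others, 16 had a peak in 3 libraries, 6 in 2 and 7 in 1. Transcripts of the USP and OTU genes with a peak were longer than usual, with a median of 4707 nt against 3318 nt over all genes with a peak, and a median coding length of 2730 nt against 1506 nt. The part of length and of expression in the higher share was not tested.

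No peak was called on 17 genes. The OTU genes among them were Otub1, which also binds and blocks E2 enzymes, and Otud6a. The USP genes were Usp14, a protease bound to the proteasome, Usp18, which removes the ubiquitin-like protein ISG15, and Usp11, Usp17la, Usp17lb, Usp17lc, Usp17ld, Usp17le, Usp26, Usp28, Usp29, Usp43, Usp50, Usp51 and Usp9y.

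**Figure D1:**
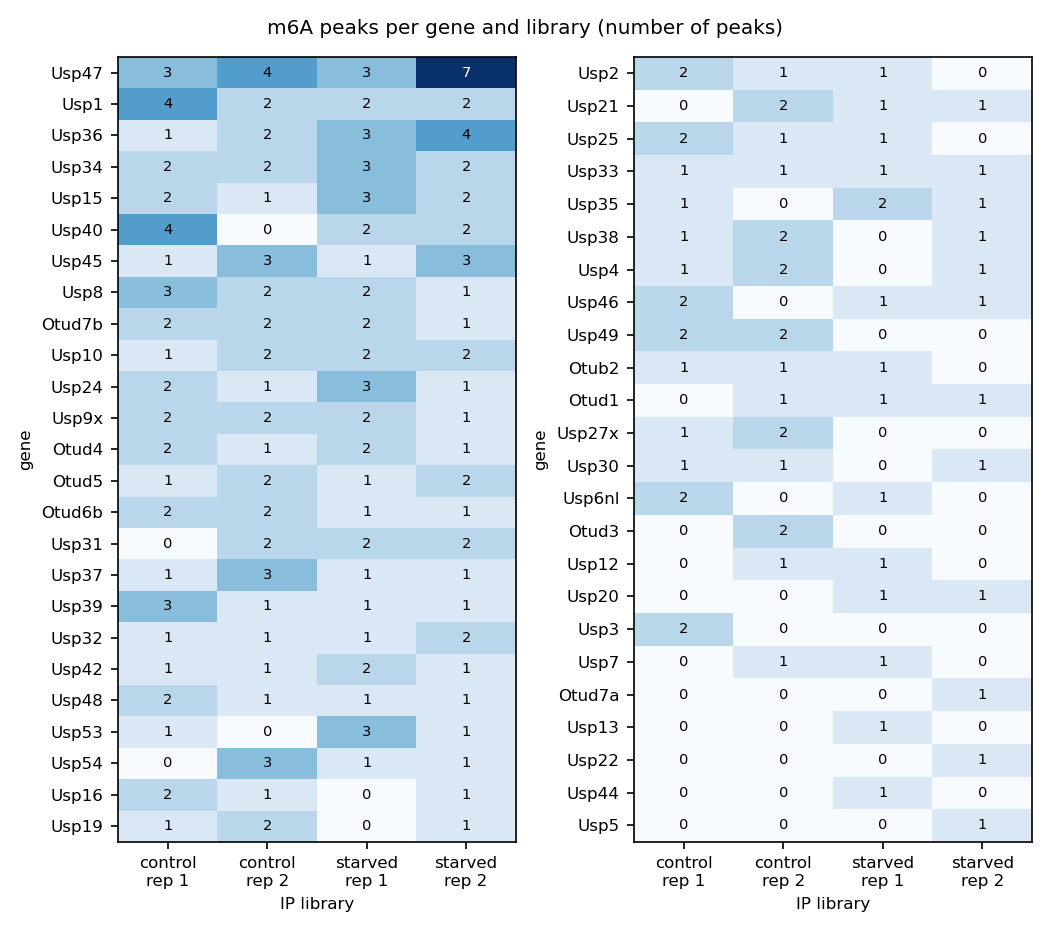
Number of m6A peaks on each of the 49 genes (rows) in each IP library (columns), with genes ordered by their total and darker cells for more peaks. Usp47 has the most peaks (17 over the 4 libraries), and 20 genes have at least 1 peak in every library.

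Peaks were spread evenly over the libraries. Control libraries held 63 and 63 member peaks and starved libraries 59 and 56, means of 63 ± 0 and 57.5 ± 2.12 (SD, n = 2 each). As a share of its list this was 0.624% and 0.638% in control cells and 0.605% and 0.624% in starved cells, so the groups overlapped. The number of genes with a peak was 36 and 37 in control cells and 37 and 37 in starved cells. The difference of -5.5 peaks turned to 3 more in starved cells when only peaks with a false discovery rate under 20% were counted, and to 1 more when lists of equal length were used.

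Median fold enrichment of member peaks was 14.3 and 15.1 in control cells and 15.1 and 14.9 in starved cells. Over all peaks of the lists it was 12.2 and 12.3 in control cells and 14.6 and 14.7 in starved cells. The log2 difference between groups was therefore 0.027 for member peaks and 0.26 for all peaks, with an SD between replicates of at most 0.0576 for the members. Its sign turned under several other settings, which are given with the limits. Single member peaks ranged from 2.56-fold to 272.05-fold. The share of member peaks whose p-value lay at the limit of the score (3100) was 20.6% and 15.9% in control cells and 30.5% and 33.9% in starved cells, beside 17%, 13.2%, 28.5% and 27.8% over all peaks.

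Where the peaks lay on the transcripts was not used to choose them. Peaks of USP and OTU genes lay less often near the stop codon and more often inside the coding sequence than peaks at large, in each of the 4 libraries. The centre of a member peak was within 100 nt of the stop codon in 4.92% and 8.33% of control peaks and in 7.02% and 1.89% of starved peaks, 5.54 ± 2.81% (SD over 4 libraries), while over all peaks the share was 12.6 ± 0.34%. The coding sequence held 59.1 ± 4.32% of member peaks and 45.8 ± 1.01% of all peaks. The 3′ UTR held 32.6 ± 5.01% and 36.8 ± 1.01%, and the 5′ UTR 2.69 ± 2.4% and 4.82 ± 0.373%. USP genes alone had 4.54 ± 1.95% of peaks at the stop codon and 60.4 ± 8% in the coding sequence. The OTU genes, with only 7 to 11 peaks per library, did not clearly share the pattern. Their share at the stop codon was 10.8 ± 7.69%, and their coding share ranged from 27.3% to 83.3% between libraries. No test was run on these shares, since the same regions recur in several libraries. The coding sequences of these genes were longer than usual (median 2730 nt against 1506 nt). The part of length in these shares, and in those of exons below, was not tested. With a window of 200 nt the share at the stop codon was 13.3 ± 4.11% of member peaks and 21.4 ± 0.419% of all peaks, lower for the members in each library. With 50 nt it was 4.71 ± 2.12% and 6.87 ± 0.296%, and starved replicate 1 then had a higher share of member peaks (7.02% against 6.62%).

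Long internal exons carried many of these peaks. Internal exons of at least 400 nt held 26.2% and 30% of control member peaks and 29.8% and 28.3% of starved member peaks, whereas over all peaks the range was 15% to 16.2%. All of these peaks were on USP genes, where they made up 33.4 ± 2.89% of peaks, and the 8 OTU genes had 0. The last exon held 47.3 ± 3.98% of member peaks, against 60.4 ± 1.5% of all peaks. It held 43.5 ± 5.13% of the peaks of USP genes but 70.1 ± 11.8% of those of OTU genes. In terms of regions, 27 of 125 placed member regions (21.6%) were centred in such an exon, from 20 genes, beside 12.3% of all placed regions. Where every library had a peak, the share was 8 of 15 (53.3%), on Usp1, Usp8, Usp10, Usp33, Usp34, Usp36, Usp45 and Usp47, beside 24.8% of 2154 placed regions at large. The remaining 7 lay in the 3′ UTR (Usp24, Usp39, Usp47 and Usp48), in the last coding exon (Otud4 and Usp1) or in a shorter internal exon (Otud5). None of the 15 was centred within 100 nt of the stop codon, as 12.4% of such regions at large were.

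**Figure D2:**
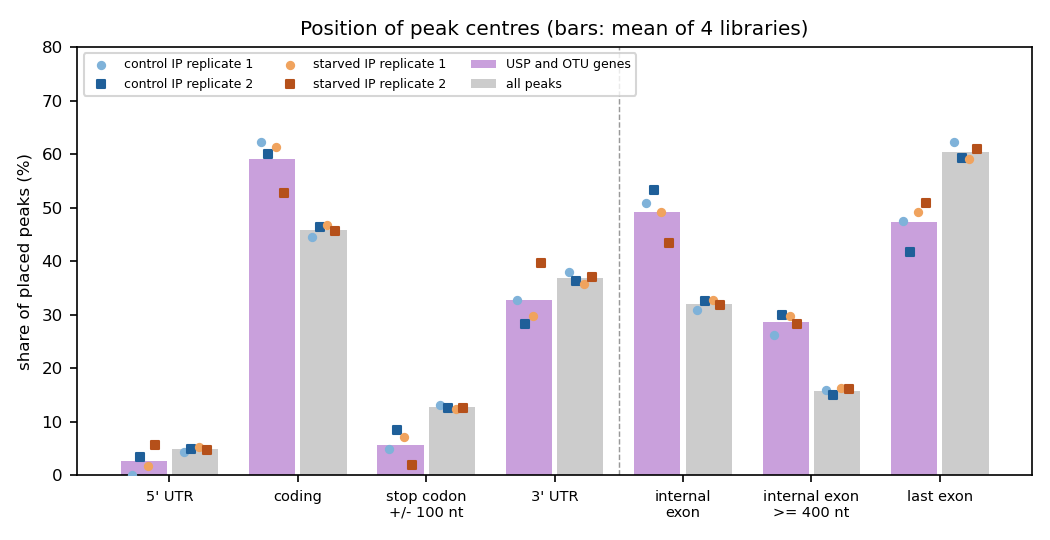
Share of placed peaks by the position of their centre on the transcript (left of the dashed line) and by the exon that holds it (right), for USP and OTU genes and for all peaks. Bars are means of the 4 IP libraries and points are single libraries. Member peaks were below all peaks at the stop codon (5.54% against 12.6%) and above them in internal exons of at least 400 nt (28.6% against 15.8%) in every library.

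The motif GGAC was searched on the transcribed strand in 200 nt of spliced transcript at each peak centre. It was present at 60.7% and 55% of control member peaks and at 64.9% and 60.4% of starved member peaks. Over all peaks the share was 63.6 ± 1.21% (SD, n = 4), and 52.9% of all windows of 200 nt along the transcripts with member peaks held the motif. The number of GGAC copies in the stretch shared by all peaks of a region was 10 for Usp47 exon 20, 10 for Usp10, 7 for Usp1 exon 9, 5 for Usp1 exon 6, 4 for Usp36, 3 for Usp34, 2 for Usp8 and 1 for Usp45, whose enrichment was the highest. Usp33 and Usp48 had 4 each, Otud4 had 3, and Otud5, Usp24 and Usp39 had 1 each. The stretch was 781 bp long for Usp47 exon 20 but 237 bp for Usp45, and the copies were not adjusted for length. A match is a letter match only, and no methylated base was mapped.

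The extent to which the libraries found the same sites was much as for other genes. Of 133 member regions, 75 (56.4%) had a peak in 1 library, 26 (19.5%) in 2, 17 (12.8%) in 3 and 15 (11.3%) in 4, beside 56.2%, 21%, 12.2% and 10.7% of all regions. For the 15 regions in all 4 libraries, the median ratio between replicates was 1.47 in control cells and 1.66 in starved cells, beside 1.63 and 1.8 over all 2257 such regions. In 21 of the 49 genes, over 50% of the regions were called in 1 list only. The same share was not computed over all genes, so this count does not set the members apart.

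**Figure D3:**
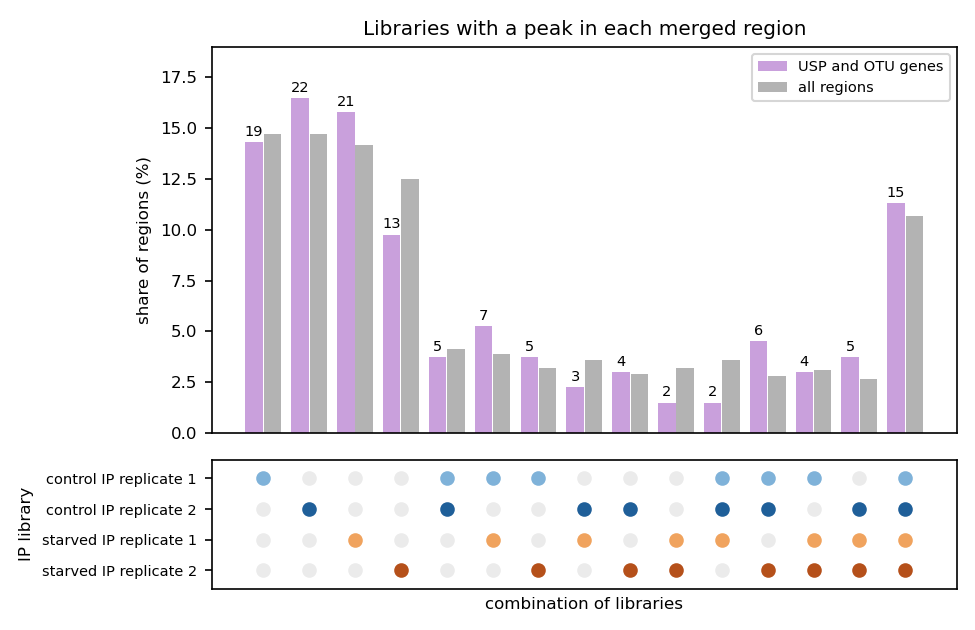
Share of merged regions (y axis, %) with a peak in each combination of IP libraries (coloured dots below), for the 133 regions of USP and OTU genes, with their number above the bar, and for all 21168 regions. Single libraries account for 56.4% of member regions, and 15 regions have a peak in all 4 libraries.

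The strongest site was in Usp45, a protease that acts on the DNA repair nuclease subunit ERCC1. Its region in exon 14 of 18 (chr4:21824773-21825077, coding) had fold enrichments of 255.12 and 200 in control cells and 267.28 and 272.05 in starved cells. Both starved values were above both control values, but only by 0.26 on the log2 scale, with SDs of 0.25 and 0.018. Without control replicate 2 the difference was 0.08, and without control replicate 1 it was 0.43. All 4 peaks reached the score limit.

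Usp47, which acts on DNA polymerase beta in base excision repair, had the next highest region of those called in all 4 libraries. It also had the most peaks of any member, with 3, 4, 3 and 7 in control replicates 1 and 2 and starved replicates 1 and 2. Its exon 20 of 28 (chr7:112092706-112093486) was covered from end to end, 781 bp, by the peak of each library. Fold enrichment there was 103.96 and 112.26 in control cells and 101.13 and 64.89 in starved cells, a log2 difference of -0.42 (SDs 0.078 and 0.45). Without starved replicate 2 this was -0.10, and without starved replicate 1 it was -0.74. The 3′ UTR of the same transcript had a difference of the opposite sign at far lower enrichment (chr7:112109945-112111290), with 7.99 and 5.59 in control cells and 10.1 and 12.03 in starved cells, a log2 difference of 0.72 (SDs 0.36 and 0.18). That difference was 0.46 without control replicate 2, and starved replicate 2 held more than 1 peak in the region. With the mean of those peaks in place of the highest, its value was 7.77, the groups overlapped and the difference was 0.41. The peaks of this 3′ UTR region had no base common to all of them, so its values do not compare a single site. Exon 17 had a peak in control replicate 2 (16.96) and in both starved libraries (21.57 and 8.41).

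Usp8, an endosomal protease that acts in the sorting of receptors such as EGFR, was enriched 106.02- and 57.7-fold in control cells and 59.35- and 90.26-fold in starved cells in exon 11 of 19 (chr2:126742124-126742657). The groups overlapped there. Exon 10 of Usp8 had peaks of 9.49, 33.36 and 53.6 in control replicates 1 and 2 and starved replicate 1, and none in starved replicate 2. Usp37, a protease linked to the G1/S transition, had a like high site in exon 20 of 26 in 3 libraries, at 116.39, 52.09 and 246.8, with none in starved replicate 1. It was named after its values were seen.

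The design asks whether m6A on these transcripts differed between fed and starved cells. With 2 libraries against 2, a two-sided exact permutation test cannot give a p below 0.333, so the differences between groups are given as values and none of them was called by this test. Among the 15 regions called in all 4 libraries, both starved values were above both control values in 5 (33.3%), where the share over all 2257 such regions was 22.9%. Both starved values were below both control values in 3 (20%), where it was 18% over all such regions. With false discovery rates under 20% only 10 regions were called in every list, of which 2 (20%) were higher and 3 (30%) lower in starved cells, beside 20.2% and 22.6% of 997 regions at large. The counts also moved with each library left out. Higher regions numbered 10 of 20 (50%) without control replicate 1 and 5 of 19 (26.3%) without control replicate 2, beside 38.5% and 36.7% at large. They numbered 12 of 21 (57.1%) without starved replicate 1 and 7 of 17 (41.2%) without starved replicate 2, beside 39.9% and 40.1%. Lower regions then numbered 6, 7, 4 and 8, beside 27.9%, 29.9%, 34.6% and 31.8% at large. With 1 library in a group, values separate more easily. The median log2 difference over the 15 was 0.0421, with a range from -1.65 to 2.51, beside 0.104 over all 2257 regions. The groups overlapped in the other 7 regions, on Otud4, Usp1 exon 6, Usp8, Usp24, Usp33, Usp39 and Usp48.

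The largest difference was in Usp34, a protease of axin in Wnt signalling and the member with the longest coding sequence. Its exon 15 of 80 (chr11:23363791-23364512, an exon of 722 nt) was enriched 4.7- and 6.01-fold in control cells and 34.08- and 26.71-fold in starved cells. The groups were far apart, by 2.51 on the log2 scale with an SD of 0.25 in each group (exact permutation p = 0.333, n = 2 per group), and without any 1 library the difference was between 2.33 and 2.68. Another region of Usp34, in exon 68, did not share this pattern, with 8.99 in control replicate 1, no peak in control replicate 2, and 5.39 and 14.11 in starved cells.

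Usp10, which deubiquitinates p53 and binds the stress granule protein G3BP, was next. Its exon 4 of 14 (chr8:119941136-119942138) was enriched 4.65- and 8.74-fold in control cells and 32.95- and 19.79-fold in starved cells, a log2 difference of 2.00 (SDs 0.64 and 0.52, exact permutation p = 0.333, n = 2 per group). Without control replicate 1 it was 1.55, and without control replicate 2 it was 2.46. In its 3′ UTR, control replicate 1 had no peak, control replicate 2 had 3.41, and the starved libraries had 15.05 and 4.94. The peaks of that 3′ UTR region had no base common to all of them, so these values do not compare a single site.

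Usp1, which with its cofactor Wdr48 removes ubiquitin from FANCD2 and PCNA, had 10 peaks in total. In its last exon, exon 9 (chr4:98934070-98935190), fold enrichment was 15.82 and 25.83 in control cells and 38.04 and 59.24 in starved cells, a log2 difference of 1.23 (SDs 0.50 and 0.45). In exon 6 (chr4:98930860-98931548) it was 28.8 and 9.09 in control cells and 12.21 and 22.73 in starved cells, so that the groups overlapped. The separation at exon 9 was thus not seen at exon 6.

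Lower values in starved cells were found in Usp36 and Otud5. Usp36 is a nucleolar protease that also stabilises Myc, and its exon 16 of 21 (chr11:118264698-118264967) had 100.5 and 68.56 in control cells and 51.54 and 28.51 in starved cells. The log2 difference was -1.11 (SDs 0.39 and 0.60), and -0.69 without starved replicate 2. In the 3′ UTR of Usp36, control replicate 1 had no peak, control replicate 2 had 16.54 and the starved libraries had 10.96 and 6.9. The peaks of that 3′ UTR region had no base common to all of them. Single peaks were called in exon 4 in starved replicate 1 (123.58) and in the 5′ UTR in starved replicate 2 (44.74). Otud5, which restrains type I interferon by acting on TRAF3, had 96.24 and 85.49 in control cells and 12.97 and 64.3 in starved cells at exon 6 of 9 (chrX:7871996-7872199), an exon of 204 nt that the peaks filled. The difference of -1.65 rested on starved replicate 1 (SDs 0.12 and 1.63) and was -0.50 without it and -2.81 without starved replicate 2.

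**Figure D4:**
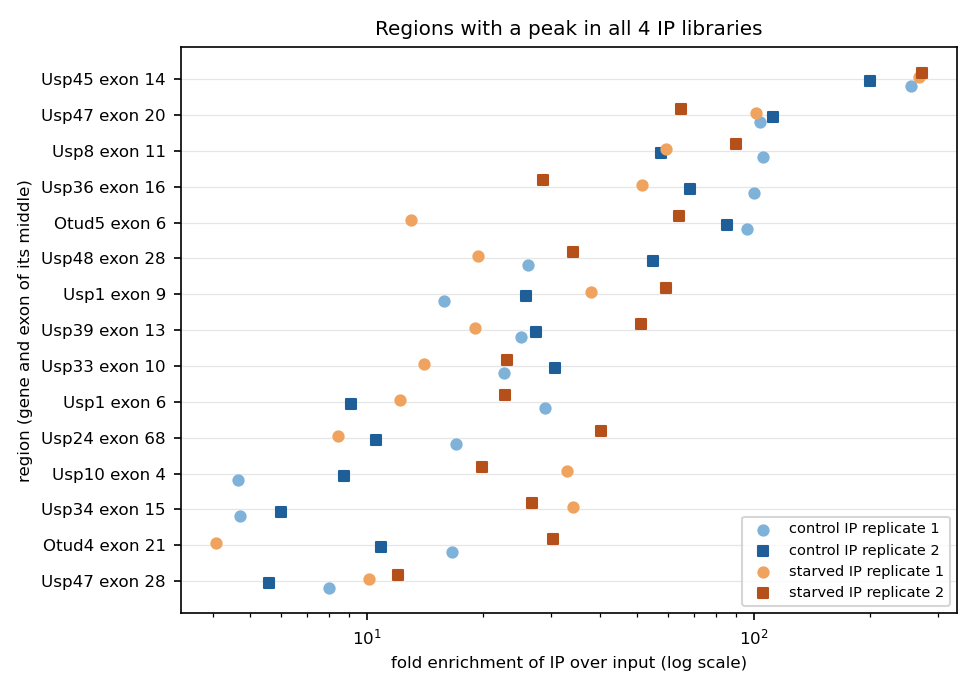
Fold enrichment of IP over input (x axis, log scale) in each IP library for the 15 regions of USP and OTU genes called in all 4 libraries, ordered by their mean log2 value. Points are single libraries. The starved libraries are apart from and above the control libraries at Usp34 exon 15 and Usp10 exon 4 and below them at Usp36 exon 16, while all 4 values of Usp45 lie between 200 and 272.05.

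Among the remaining regions called in all 4 libraries, Usp24 had 16.98 and 10.53 in control cells and 8.42 and 40.31 in starved cells. Otud4 had 16.6 and 10.89 against 4.07 and 30.27. In both, the starved libraries lay on either side of the control libraries. Usp39, a splicing factor of the tri-snRNP with an inactive protease fold, had 25.05 and 27.4 in control cells and 19.01 and 51.29 in starved cells. Usp33 had 22.69 and 30.57 against 14.03 and 23. Usp48, a nuclear protease, had 26.05 and 54.89 against 19.38 and 34.19. In none of these did the groups separate.

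A further 17 regions had a peak in 3 of the libraries and so show which list missed a site that the others held. Control replicate 1 lacked the peak in 5 of them, control replicate 2 in 4, starved replicate 1 in 6 and starved replicate 2 in 2. In the same order, these were 3.76%, 3.01%, 4.51% and 1.5% of member regions, beside 2.66%, 3.1%, 2.83% and 3.6% of all regions. With so few regions the split does not set the members apart. Usp35 had 38.83 in control replicate 1 and 118.24 and 27.38 in the starved libraries at an exon of 1273 nt, and no peak in control replicate 2. Usp31 had no peak in control replicate 1, 6.59 in control replicate 2, and 11.2 and 33.21 in starved cells. Usp4 had 8.68 and 12.19 in control cells and 20.24 in starved replicate 2, without a peak in starved replicate 1. Usp19, which is anchored in the endoplasmic reticulum membrane, had 6.09 and 6.33 in control cells and 13.95 in starved replicate 2. Usp25 lay near its stop codon, with 5.09 and 4.99 in control cells and 8.12 in starved replicate 1. Values missing from 1 list were thus not confined to sites of low enrichment, as the 246.8-fold peak of Usp37 shows.

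Peaks in both starved lists but in no control list were found in 2 of 133 member regions (1.5%), whereas 3.2% of all 21168 regions had this pattern. These were the 5′ UTR of Usp53, a protein of cell junctions (chr3:122968698-122969249, 48.39 and 175.7), and the 3′ UTR of Usp54 (chr14:20549051-20549670, 29.47 and 13.07). In each, the peaks of the starved replicates shared only a part of the region, 121 bp in Usp53 and 93 bp in Usp54. When the overlap had to reach 50% of the shorter peak, neither remained, so that the count was 0. Usp54 also had 3 peaks in control replicate 2, all at other sites, of 18.5, 116.45 and 52.53. The first of these lay over an exon of the annotated gene 1810062O18Rik, so the gene it belongs to is uncertain.

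The opposite pattern, peaks in both control lists but in no starved list, was found in 5 member regions (3.76%), whereas 4.15% of all regions had it. Usp49, a protease of histone H2B, had the highest values (chr17:47672044-47672503, exon 3 of 7, 82.04 and 72.02), and 8 copies of GGAC lay in the part shared by both peaks. The annotated gene Gm20517 has an exon over the same bases, so the reads of both cannot be told apart here. Usp27x, which acts on the cell death protein Bim, had 31.1 and 21.12 over its coding sequence (chrX:7373403-7374750). Control replicate 2 held 2 peaks there, the lower at 15.51, and the peaks of this region had no base common to all of them. Usp16, a protease of histone H2A, had 24.71 and 10.54 at a site outside the coding transcripts used here (chr16:87470354-87470630). Usp2, a protease with a circadian rhythm of expression, had 15.28 and 18.01 in exon 2 (chr9:44075698-44076076). Otud6b had 10.03 and 18.08 over the whole of its exon 4, 313 nt (chr4:14818176-14818488), with no GGAC. With false discovery rates under 20% only, the count was 3. These counts depend on how many libraries have to match: without starved replicate 1 or 2 there were 17 or 23 regions in the starved libraries only, and without control replicate 1 or 2 there were 6 or 7. In the control libraries only there were 28 or 24 without control replicate 1 or 2, and 11 without starved replicate 2. With 1 library left in a group, these counts take in sites called in a single list, which were 56.2% of all regions. Shares over all regions were not computed for these settings or for the false discovery rate, so the counts describe the members only.

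By gene rather than by region, Usp20 was the only member with peaks in both starved lists but in no control list (1 of 49, 2.04%, beside 3.19% of 9779 genes). Its peaks were at different sites, 27.29 in exon 11 in starved replicate 1 and 14.86 in the 3′ UTR in starved replicate 2. Usp27x and Usp49 had peaks in both control lists but in no starved list (2 of 49, 4.08%, beside 4.56% of all genes). In these shares the members were near or below the background.

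Of the OTU genes, 4 had a peak in every library. Besides Otud4 and Otud5 these were Otud6b, with 2, 2, 1 and 1 peaks, and Otud7b, known as Cezanne and specific for K11-linked chains, with 2, 2, 2 and 1. Otud7b had 5.31, 6.29 and 4.34 in its 3′ UTR in both control libraries and starved replicate 2, and 21.85 and 29.07 in the coding part of its last exon in control replicate 1 and starved replicate 1. Otub2 had 72.26 in control replicate 1 and 11.35 in starved replicate 1 at the same 3′ UTR site. Otud1 had a region at the stop codon with 10.68 in control replicate 2 and 93.53 in starved replicate 2, and 64.12 further into the 3′ UTR in starved replicate 1. Otud3 had peaks in control replicate 2 only, of 14.48 and 53.52, and Otud7a a single peak of 83.97 in starved replicate 2. Among OTU regions called in 1 list only, those of Otud1, Otud7a and 1 of Otud3 thus had 53.52 or more. The other such OTU regions had 2.56 to 15.13. USP genes also had high values in 1 list, such as 123.58 on Usp36, and the shares were not compared.

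Besides Usp47 and Usp1, the genes with the most peaks were Usp36 (10), Usp34 (9) and Usp8, Usp15, Usp40 and Usp45 (8 each). Usp15, a protease of TGF-beta signalling, had its 8 peaks in 7 regions, and only the site at its stop codon was shared, by control replicate 1 (12.47) and starved replicate 1 (5). Usp40 had 4 peaks in control replicate 1, none in control replicate 2 and 2 in each starved library, with 19, 8.42 and 5.04 at the 3′ UTR site called in 3 libraries. In contrast, Usp7, the protease of MDM2 and p53, had only 2 peaks, of 4.19 and 4.78, each in 1 library and at different sites. Usp9x had a region in exon 35 of 45, an exon of 754 nt that the region filled, with no peak in control replicate 1 and 4.96, 11.33 and 17.01 in control replicate 2 and the starved libraries.

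Related families showed a mixed picture. Of 6 OTU genes outside the naming rule, 5 had a peak and 2 had one in all 4 libraries, Zranb1 and Vcpip1. The A20 gene Tnfaip3 had its region in both control lists but in no starved list, with values from 17.62 to 60.65. In the families that follow, Uspl1, Eif3h and Senp1 also had 1 region each with this pattern. Mindy2 and Senp5 had 1 region each in both starved lists but in no control list. Over all regions these patterns made up 4.15% and 3.2%. All 3 genes with a USP fold but another name had a peak (Cyld, Uspl1 and Pan2), Cyld and Uspl1 in every library. Of 11 genes with a JAMM/MPN domain, some of which lack the metal site and are not proteases, 6 had a peak and 2 had one in all libraries, the signalosome subunit Cops6 and the histone deubiquitinase Mysm1, while the proteasome subunit Psmd14 had none. Of 5 UCH genes 3 had a peak, of 3 Josephin genes 2, of 4 MINDY genes 4, and Zup1 had one. Among the 7 SENP proteases, which remove ubiquitin-like proteins, 6 had a peak, and 3 of them, Senp2, Senp5 and Senp6, in every library. All 4 cofactors of USPs had a peak, and Wdr48, the partner of Usp1, had one in every library.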

How the data were processed

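MeRIP-seq peak lists of 2 control and 2 starved IP libraries were used, grouped by the labels. Per the study's methods, the authors used Cutadapt for trimming, HISAT2 2.0.4 for alignment to mm10 and MACS2 for peak calling in each IP library over its input, and retained peaks on mRNA exons. The columns follow an older MACS layout, so the caller version is uncertain. Replicates were not pooled. The authors' deposited fold enrichment is a ratio of the IP signal over the local background in the input. The deposited false discovery rate is a percent, and the deposited score is minus 10 times log10 of a p-value, with a limit of 3100. A deposited table of the authors' own group comparison (fold changes and p-values) was not used. No column of sample values stayed without a sample (0 of them). Reads and depths are not part of the lists, so neither counting intervals nor detection limits are given.

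Peaks of any library that overlapped by 1 bp were merged into regions, and the highest fold enrichment of a library was its value. Peaks were placed by their centre on coding transcripts of GENCODE M21 (GRCm38, the assembly of mm10), and sequences are from its transcripts. 10 member peaks could not be placed. Starts count from 1. Gene symbols of the annotation are from RefSeq GRCm38.p6. Regions called in all libraries were compared by two-sided exact permutation on log2 fold enrichment. Steps were tested on simulated lists (5000 regions), and 12 of 12 quantities were recovered. Python 3.11.15, pandas 2.3.3 and scipy 1.17.1 were used.

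Members and gene lists were chosen with earlier results of these data known. Named were regions called in both libraries of 1 group only, regions called in all 4 libraries with separated groups, the 5 genes with the most peaks (ties kept), the 5 highest and 5 lowest regions called in all libraries, all Otud and Otub genes, and genes without a peak. Other regions named were chosen after their values were seen. Alternatives covered fold, false discovery rate, list length, overlap, windows, motif, replicate block and single libraries left out. One of the gene lists examined is not reported here.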

Additional observations from a re-analysis of the deposited data

How the results depend on the processing

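With peaks of at least 4-fold enrichment, the difference in peaks per library was -2.5 and the log2 difference in median fold enrichment turned to -0.0163. With false discovery rates under 20%, the differences were 3 peaks and 2.5 genes per library and 0.126 in log2 median fold, with 3 regions in control libraries only, 2 regions higher in starved cells, 1.46% of peaks at the stop codon and 68.5% with GGAC. With lists of equal length (8974 best-scoring peaks), they were 1 peak, 1.5 genes and -0.131 in log2 median fold. The cause of these changes was not tested. Asking for 50% of the shorter peak as overlap left 0 regions in starved libraries only. A stop codon window of 200 nt gave 13.3%, a GGAC window of 100 nt gave 37.6% and GGACT gave 24.8%.

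Leaving out 1 library gave differences of -7 to -4 peaks, 0 to 1 genes and -0.0137 to 0.0677 in log2 median fold (the negative value without control replicate 1). It gave 6 to 23 regions in starved libraries only, 7 to 28 in control libraries only, 17 to 21 in all libraries, 5 to 12 higher and 4 to 8 lower in starved cells, with 4.61% to 6.76% of peaks at the stop codon and 58.7% to 62% with GGAC. Fewer libraries then have to match, which can raise such counts. Same-numbered replicates did not deviate together in fold enrichment (correlation of -0.0173 over 2257 regions). Whether they share more than a number is not known from the labels. With the replicate block, 5 regions were higher and 5 lower in starved cells, and the smallest p of the blocked permutation was 0.5. The share over all regions was not computed with the block, so these counts describe the members only. The 8 named regions with separated groups kept their direction with each library left out and with the block. Choosing regions with separated groups fixes this outcome in advance, so it lends the differences no further weight. Leaving out Usp6nl, added after seeing the data, changed no direction. Using the mean of several peaks in a region, also added after seeing the data, left 4 higher and 3 lower regions, since the groups then overlapped in the Usp47 3′ UTR. Depth limits all presence calls, and a site called in 1 list may lie just under the threshold in another.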
